A study of Homo sapiens with 8 samples.

Results

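The 10 genes described here are TBC1D2, RAB37, LRP10, PRSS3, FBXO44, SH2D5, LZTS3, YPEL3, SLC4A11 and DNHD1. They were chosen because their RNA lay well above both control libraries in each of the libraries in which the long non-coding RNA LY6K-AS was knocked down, and by nearly the same amount in each. They are 10 of 66206 gene rows in each deposited table, of which 57055 matched GENCODE release 29. Values after LY6K-AS knockdown therefore chose the genes and are given as a description without a test, whereas their values after knockdown of YWHAG played no part in the choice and were tested.

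The cells were A549, an established line from a human lung adenocarcinoma, and their RNA was sequenced in 4 groups of 2 libraries, 8 in all. LY6K-AS was targeted with 25 pmol of locked nucleic acid (LNA) gapmer, an antisense oligonucleotide that directs RNase H to its target RNA, in the libraries titled LNA1 and LNA3. Their controls, scramble gapmers 1 and 2, received 25 pmol of a gapmer with a scramble sequence. YWHAG was targeted with 40 pmol of siRNA in the libraries si1 and si2. Their controls received 40 pmol of a scramble siRNA and are called scramble siRNAs 2 and 3, after the numbers in their table. All groups were transfected with the same reagent, and no untransfected group was analysed here. The numbering may mean that LNA1 and LNA3, and likewise si1 and si2, carried different oligonucleotides, which the labels do not state. Nor are replicates labelled as separate cultures. The p-values speak for the variation among these libraries alone, and that variation may be technical.

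LY6K-AS is transcribed from the strand opposite LY6K, which encodes a GPI-anchored protein of the LY6 family, and the title of the series presents it as a regulator of mitotic progression. YWHAG encodes 14-3-3 gamma, an adaptor that binds phosphorylated serine and threonine motifs in many signalling and cell cycle proteins. The 10 genes belong to no single pathway. TBC1D2, RAB37 and LRP10 act in membrane traffic, FBXO44 and PRSS3 in protein breakdown, SH2D5 and LZTS3 as adaptors or scaffolds, YPEL3 in growth arrest, SLC4A11 in ion transport, and DNHD1 is a dynein-like protein.

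The read totals behind the deposited RPKM were inferred from the values themselves. They were 26.2 and 30.9 M reads (M, 1e6 reads) in LNA1 and LNA3, and 34.0 and 30.5 M in scramble gapmers 1 and 2. In the siRNA libraries they were 33.7 to 34.6 M. LNCOC1 is annotated antisense to LY6K and was read as LY6K-AS. It had 3 and 8 reads in LNA1 and LNA3, against 34 and 17 reads in scramble gapmers 1 and 2, so its depletion rests on few reads. YWHAG had 13.5 and 4.91 RPKM (reads per kilobase of merged exons per 1e6 reads) in si1 and si2, against 163 and 158 RPKM in scramble siRNAs 2 and 3. It had 133 and 101 RPKM in LNA1 and LNA3, against 143 and 145 RPKM in scramble gapmers 1 and 2 (limma adjusted p = 0.291). All 12 epithelial and A549 markers examined were at 0.5 RPKM or more in every library. Of 9 immune markers 3 to 5 were at 0 in each library, and their summed level was 4.97 to 6.34 RPKM in the LY6K-AS knockdown libraries and 3.91 to 4.28 RPKM in scramble gapmers. In the siRNA table that sum was 0.954 to 2.10 RPKM in YWHAG knockdown libraries and 3.39 to 3.89 RPKM in scramble siRNAs. The 8 fibroblast markers summed to 4.11 to 10.2 RPKM in LY6K-AS knockdown libraries, 7.02 to 7.73 RPKM in scramble gapmers, 1.22 to 2.45 RPKM in YWHAG knockdown libraries and 2.57 to 2.71 RPKM in scramble siRNAs. The 7 endothelial markers summed to at most 0.193 RPKM in any library. The part of these other markers in the results was not tested.

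After LY6K-AS knockdown all 10 genes were 2.01-fold to 2.82-fold higher in mean RPKM than with scramble gapmers. After YWHAG knockdown none of them passed the test, 6 had a higher mean and 4 a lower one, and LRP10 had the largest log2 difference. All 10 passed the expression filter in both tables, which asked for 0.5 RPKM or more in 2 or more libraries of the table. Each of the 10 genes lay above both scramble gapmers in both LY6K-AS knockdown libraries, as did 31.4% of the 14662 genes tested, while 30.5% lay below both. The choice of the genes fixes their count. Likewise 50.3% of all genes had a mean difference above 0. With limma on log2(RPKM + 1) and Benjamini-Hochberg adjustment over all genes, 0% of those genes passed a threshold of 0.05, and 25.3% had an unadjusted p under 0.05. That count rests on both knockdown libraries, since 7725 genes passed without LNA1 and 4350 without LNA3, where the spread comes from the controls alone. After YWHAG knockdown 16.4% of 13903 genes had an unadjusted p under 0.05.

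**Figure D1:**
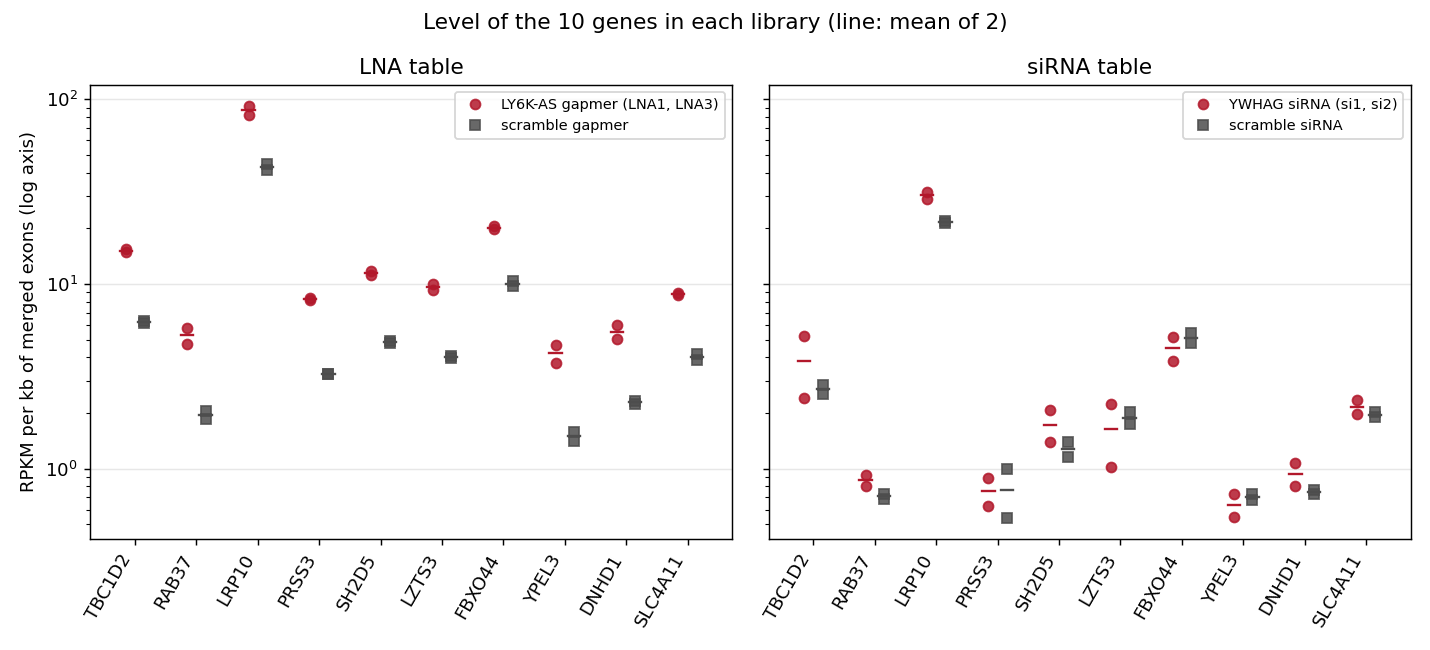
Level of each of the 10 genes (RPKM per kilobase of merged exons, log axis) in single libraries, with knockdown libraries in red left of their scramble controls in grey and a short line at the mean of 2. In the LNA table every red point lies above its grey points; in the siRNA table this holds for RAB37, LRP10 and DNHD1.

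Among the genes of membrane traffic, TBC1D2 (ENSG00000095383.19, chr9:98198999-98255721 on hg38, minus strand) encodes a GTPase-activating protein that switches off RAB7 on late endosomes. It had 15.4 and 14.9 RPKM in LNA1 and LNA3, against 6.15 and 6.30 RPKM in scramble gapmers 1 and 2. The means were 15.2 ± 0.382 and 6.22 ± 0.103 RPKM (SD, n = 2 each), a 2.44-fold difference and the largest of the 10 on the log2(RPKM + 1) scale, at 1.16. After YWHAG knockdown TBC1D2 had 5.24 and 2.42 RPKM in si1 and si2, against 2.52 and 2.85 RPKM in scramble siRNAs 2 and 3. Only si1 stood above its controls, and si2 lay below both. The mean log2 difference was 0.33 ± 0.30 (SE, limma adjusted p = 0.619), and without si1 it was −0.10.

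RAB37 (ENSG00000172794.19, chr17:74670578-74747335, plus strand) encodes a small GTPase of secretory vesicles, related to RAB26, RAB27 and RAB3. It had 4.73 and 5.80 RPKM in LNA1 and LNA3, against 2.05 and 1.86 RPKM in scramble gapmers 1 and 2, a 2.69-fold difference of the means. Both knockdown libraries stood apart from both controls, with LNA3 the higher. In the YWHAG comparison it had 0.810 and 0.929 RPKM in si1 and si2, against 0.686 and 0.732 RPKM in scramble siRNAs 2 and 3. Both knockdown libraries lay above both controls, as they did for 20.4% of the 13903 genes tested in that table, and the log2 difference was 0.13 ± 0.12 (SE, limma adjusted p = 0.611). These siRNA levels rest on 142 and 159 reads in si1 and si2, against 120 and 128 reads in scramble siRNAs 2 and 3, and the exact Poisson 95% interval of 119.6 to 167.4 reads for si1 covers the counts of both controls.

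LRP10 (ENSG00000197324.8, chr14:22871613-22881580, plus strand) encodes a receptor of the lipoprotein receptor family that cycles between the trans-Golgi network and endosomes, and it had the highest level of the 10. It had 81.9 and 92.6 RPKM in LNA1 and LNA3, against 41.4 and 44.9 RPKM in scramble gapmers 1 and 2. The means of 87.3 ± 7.56 and 43.1 ± 2.51 RPKM (SD, n = 2 each) differed 2.02-fold. After YWHAG knockdown LRP10 had 29.04 and 31.6 RPKM in si1 and si2, against 21.5 and 22.0 RPKM in scramble siRNAs 2 and 3. Both siRNA knockdown libraries were higher than both controls, by 0.40 and 0.52 on the log2(RPKM + 1) scale. The log2 difference was 0.46 ± 0.13 (SE), a 1.39-fold ratio of means. It was the only one of the 10 with an unadjusted limma p under 0.05 in this comparison, where 7.51% of all genes were higher at that level. It did not pass after adjustment over all genes (limma adjusted p = 0.251), nor did any gene of the table (0% called).

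Of the genes of protein breakdown, PRSS3 (ENSG00000010438.16, chr9:33750466-33799231, plus strand) encodes mesotrypsin, a trypsin that resists and cleaves many trypsin inhibitors. It had 8.22 and 8.39 RPKM in LNA1 and LNA3, against 3.24 and 3.25 RPKM in scramble gapmers 1 and 2, a 2.56-fold difference of the means. Replicates were nearly equal within each group. With YWHAG knocked down it had 0.887 and 0.623 RPKM in si1 and si2, against 0.994 and 0.541 RPKM in scramble siRNAs 2 and 3. Both knockdown values lay between the controls, and the log2 difference was −0.00 ± 0.18 (SE, limma adjusted p = 0.997). PRSS3 is nearly identical in sequence to other trypsinogen genes, and 72 bases of its exons overlap the antisense gene UBE2R2-AS1. The counting of multiply mapped reads and the use of strand are not given in the sources used here, so its level is uncertain.

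FBXO44 (ENSG00000132879.13, chr1:11654375-11663327, plus strand) encodes the substrate-binding F-box subunit of an SCF ubiquitin ligase. It had 19.8 and 20.5 RPKM in LNA1 and LNA3, against 9.76 and 10.3 RPKM in scramble gapmers 1 and 2, the smallest ratio of the 10 at 2.01-fold. YWHAG siRNA left it at 3.82 and 5.13 RPKM in si1 and si2, against 4.77 and 5.41 RPKM in scramble siRNAs 2 and 3. Here si1 lay below both controls and si2 between them, and the log2 difference was −0.16 ± 0.17 (SE, limma adjusted p = 0.672). Its exons share 267 bases with FBXO2 on the other strand, and reads there cannot be told apart without strand. FBXO2, another F-box gene, had 15.2 and 25.2 RPKM in LNA1 and LNA3, against 5.82 and 6.33 RPKM in scramble gapmers 1 and 2.

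Among the adaptors and scaffolds, SH2D5 (ENSG00000189410.11, chr1:20719732-20732837, minus strand) encodes a protein with an SH2 and a PTB domain, and has been studied mainly in brain. It had 11.2 and 11.7 RPKM in LNA1 and LNA3, against 4.80 and 4.91 RPKM in scramble gapmers 1 and 2, a 2.36-fold difference of the means. In si1 and si2 it had 2.07 and 1.39 RPKM, against 1.15 and 1.39 RPKM in scramble siRNAs 2 and 3. In si1 it exceeded both controls, whereas si2 was level with the higher control. The log2 difference was 0.26 ± 0.17 (SE, limma adjusted p = 0.499).

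LZTS3 (ENSG00000088899.14, chr20:3162617-3173592, minus strand) encodes a leucine zipper scaffold known from the postsynaptic density of neurons, where it binds SHANK proteins. It had 9.96 and 9.22 RPKM in LNA1 and LNA3, against 4.06 and 3.97 RPKM in scramble gapmers 1 and 2, a 2.39-fold difference of the means. After YWHAG knockdown it had 2.25 and 1.02 RPKM in si1 and si2, against 1.75 and 2.02 RPKM in scramble siRNAs 2 and 3. The YWHAG knockdown libraries lay on opposite sides of the controls, and the log2 difference was −0.17 ± 0.25 (SE, limma adjusted p = 0.765). The annotation version of LZTS3 differs from that in GENCODE 29, which gave its coordinates and length, but its values resolved into whole reads.

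YPEL3 (ENSG00000090238.11, chr16:30092314-30096915, minus strand) encodes a small zinc-binding protein that slows cell growth and is a known p53 target in human cells. It had 3.73 and 4.70 RPKM in LNA1 and LNA3, against 1.58 and 1.41 RPKM in scramble gapmers 1 and 2, the largest ratio of the 10 at 2.82-fold. Its YWHAG knockdown values were 0.728 and 0.550 RPKM in si1 and si2, against 0.675 and 0.730 RPKM in scramble siRNAs 2 and 3. Of these, si1 lay between the controls and si2 below both, and the log2 difference was −0.06 ± 0.12 (SE, limma adjusted p = 0.842). The siRNA values rest on 59 to 80 reads per library. Of its exon bases 300 overlap the antisense gene AC012645.1.

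SLC4A11 (ENSG00000088836.12, chr20:3227417-3239559, minus strand) encodes a membrane transporter of the bicarbonate transporter family, known for its part in the corneal endothelium. It had 8.69 and 8.93 RPKM in LNA1 and LNA3, against 3.87 and 4.18 RPKM in scramble gapmers 1 and 2, a 2.19-fold difference of the means. Levels with YWHAG siRNA were 1.98 and 2.35 RPKM in si1 and si2, against 1.90 and 2.02 RPKM in scramble siRNAs 2 and 3. Only si2 stood above both controls (log2 difference 0.09 ± 0.13 SE, limma adjusted p = 0.759). Its annotation version differs from that in GENCODE 29 and its values did not resolve into whole reads, so its level per length is approximate.

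DNHD1 (ENSG00000179532.12, chr11:6497260-6593758, plus strand) encodes a protein resembling dynein heavy chains, with a role described in sperm flagella. It had 5.05 and 6.002 RPKM in LNA1 and LNA3, against 2.34 and 2.24 RPKM in scramble gapmers 1 and 2, a 2.42-fold difference of the means. After YWHAG knockdown it had 0.809 and 1.07 RPKM in si1 and si2, against 0.761 and 0.724 RPKM in scramble siRNAs 2 and 3. Again both knockdown libraries lay above both controls, with si2 the higher, and the log2 difference was 0.15 ± 0.13 (SE, limma adjusted p = 0.584). DNHD1 shares 472 of its 19629 exon bases with AC084337.2 on the same strand.

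The likeness of LNA1 and LNA3 was part of the choice of the 10 genes. Their log2 differences from the control mean were 0.88 to 1.19 in LNA1 (median 0.95) and 0.96 to 1.20 in LNA3 (median 1.10). LNA3 was the higher for 8 of the 10, and TBC1D2 and LZTS3 were higher in LNA1. The gap between LNA1 and LNA3 was 0.03 to 0.27 for the 10 genes, whereas its median was 0.57 over the 188 genes (1.28% of those tested) with a mean difference of 0.9 or more. Of those 188 genes 42, the 10 included, had a gap no wider than 0.27. By mean difference the 10 ranked from place 47 to place 158 of 14662 genes. Across all genes the SD of the difference between libraries was 0.40 for LNA1 and LNA3 and 0.16 for scramble gapmers 1 and 2.

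The likeness of si1 and si2 played no part in the choice, so a wider gap between them in these genes can follow from the choice alone. How much of it does was not tested. Across all genes the SD of the difference between si1 and si2 was 0.43, near the 0.40 for LNA1 and LNA3. In si1 9 of the 10 lay above the control mean (median log2 difference 0.09, range −0.33 to 0.76), and in si2 6 did (median 0.04, range −0.51 to 0.52). For 5 of them, TBC1D2, PRSS3, LZTS3, FBXO44 and YPEL3, the sign differed between si1 and si2. The median of the 10 mean differences was 0.11, with a range of −0.17 to 0.46, against a median of −0.05 over all genes tested, of which 42.4% were above 0. The 3 genes above both controls in si1 and si2 (RAB37, LRP10 and DNHD1) stand beside 20.4% of all genes, and no gene of the 10 lay below both controls, against 30.8% of all genes. A p above the threshold does not show that a gene did not change. For TBC1D2 and LZTS3 the SE was 0.25 or more, since si1 and si2 differed widely.

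**Figure D2:**
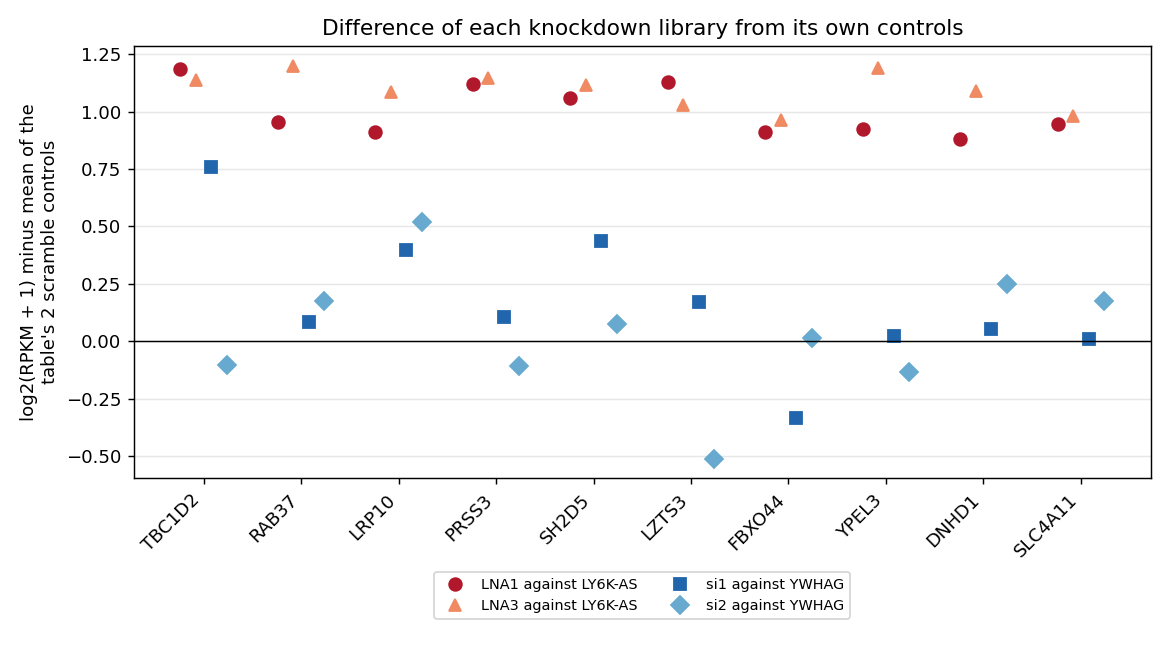
Difference of each knockdown library from the mean of its own scramble controls, in log2(RPKM + 1), for the 10 genes; circles are LNA1, triangles LNA3, squares si1 and diamonds si2. The LY6K-AS points lie between 0.88 and 1.20, and the YWHAG points between −0.51 and 0.76 on both sides of 0.

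The choice of the 10 genes did not use GC content itself, but it used differences that moved with GC content over all genes. The 10 genes were alike in GC content and not in length or level. Their longest transcripts held 55.0 to 62.5% G and C (median 58.3%), against a median of 49.1% over genes tested in the LNA table, and each stood between the 69.0 and 91.1 percentiles. LZTS3 was the richest in G and C and RAB37 the poorest. Among genes with a control level within 1.5-fold of their own, their GC percentiles had a median of 81.1. Differences from controls moved with GC content over all genes of the LNA table, with Spearman rho 0.41 in LNA1 and 0.52 in LNA3, but hardly in the siRNA table, with rho 0.04 in si1 and −0.01 in si2. These correlations are across genes, which share their library and are not replicates. The 188 genes at 0.9 or more had a median GC content of 60.5%. With the trend on GC removed from the LNA table, the 10 genes lay 0.74 to 0.97 above scramble gapmers (median 0.84). These values come from the libraries that chose the genes, and the part of GC content in the differences was not tested. Their merged exon length covered nearly the whole range, from the 18.8 percentile (PRSS3, 1664 bases) to the 99.2 percentile (DNHD1, 19629 bases). Their level in scramble gapmers ran from the 25.9 percentile for YPEL3 to the 93.8 percentile for LRP10.

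**Figure D3:**
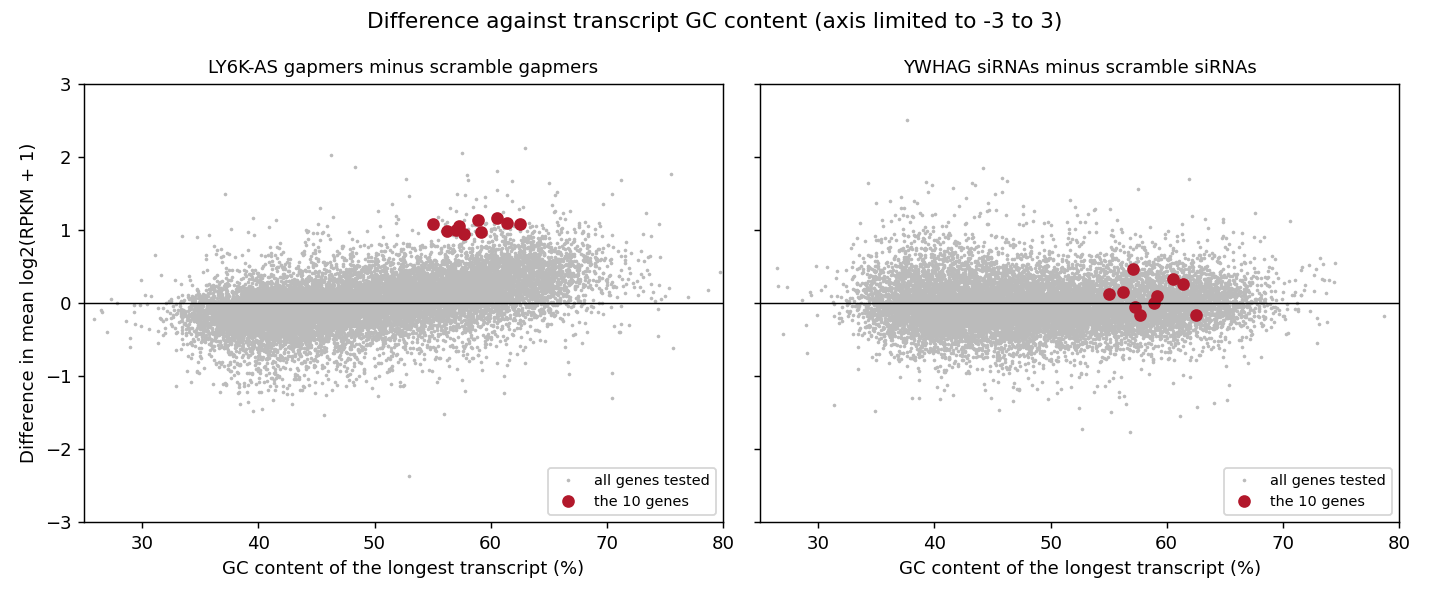
Difference in mean log2(RPKM + 1) between knockdown and scramble libraries against GC content of the longest transcript (percent), for all genes tested (grey) and the 10 genes (red), without genes beyond the limits of the vertical axis. The 10 genes lie between 55.0 and 62.5% GC in both panels; grey points climb with GC content after LY6K-AS knockdown and are level after YWHAG knockdown.

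Control levels of the 10 genes also differed between the tables, which were normalized separately and came from cells transfected with different control oligonucleotides. Each was 1.97-fold to 4.23-fold higher in scramble gapmers than in scramble siRNAs (median 2.22), against a median of 1.13 over 12861 genes tested in both tables. PRSS3 (4.23-fold), SH2D5 (3.82-fold), DNHD1 (3.08-fold) and RAB37 (2.76-fold) exceeded the 90th percentile of 2.70. Over all genes this ratio moved with GC content (Spearman rho 0.57 across genes). The share of mitochondrial transcripts was 4.12 to 8.43% in the LNA table and 14.0 to 18.2% in the siRNA table. The part of these in the ratio was not tested. Of the 10 genes, 6 reached an RPKM of 1 in 2 or more libraries of the siRNA table.

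RefSeq promoter windows on GRCh38.p14, from 250 bases before to 50 after a start site, were at hand for 7 of the 10 genes and numbered 9, since TBC1D2 and LZTS3 have 2 each. Of these, 4 held a match to the p53 decamer, the repeated element of p53 binding sites, searched on both strands, which was present in 6.63% of all 35116 windows. The decamer was picked for printing from several motifs searched, with the values of p53 targets known, and any part of p53 was not tested. Each of the 4 windows held 1 match, so none held the element repeated. The match is in capitals and all are written from 5′ to 3′ on the strand of the gene.
PRSS3, chr9:33795311-33795610, plus strand: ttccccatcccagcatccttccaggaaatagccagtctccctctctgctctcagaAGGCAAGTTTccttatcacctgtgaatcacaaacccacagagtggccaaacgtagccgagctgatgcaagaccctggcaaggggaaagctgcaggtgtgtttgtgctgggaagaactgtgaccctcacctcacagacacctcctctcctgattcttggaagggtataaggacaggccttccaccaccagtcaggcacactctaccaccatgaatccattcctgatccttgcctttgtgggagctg
YPEL3, chr16:30096164-30096463, minus strand: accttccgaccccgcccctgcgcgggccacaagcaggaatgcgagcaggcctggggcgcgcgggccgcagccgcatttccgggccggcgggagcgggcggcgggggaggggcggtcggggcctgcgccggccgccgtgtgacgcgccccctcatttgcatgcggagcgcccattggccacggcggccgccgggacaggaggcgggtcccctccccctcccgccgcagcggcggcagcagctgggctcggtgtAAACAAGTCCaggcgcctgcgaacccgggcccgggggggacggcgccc
LRP10, chr14:22871490-22871789, plus strand: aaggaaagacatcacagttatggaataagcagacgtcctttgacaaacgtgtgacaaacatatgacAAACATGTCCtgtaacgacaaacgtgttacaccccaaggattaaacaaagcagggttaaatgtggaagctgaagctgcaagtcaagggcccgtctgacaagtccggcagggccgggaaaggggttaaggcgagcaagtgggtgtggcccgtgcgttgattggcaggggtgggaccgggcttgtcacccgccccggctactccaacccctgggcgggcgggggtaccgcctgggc
DNHD1, chr11:6497030-6497329, plus strand: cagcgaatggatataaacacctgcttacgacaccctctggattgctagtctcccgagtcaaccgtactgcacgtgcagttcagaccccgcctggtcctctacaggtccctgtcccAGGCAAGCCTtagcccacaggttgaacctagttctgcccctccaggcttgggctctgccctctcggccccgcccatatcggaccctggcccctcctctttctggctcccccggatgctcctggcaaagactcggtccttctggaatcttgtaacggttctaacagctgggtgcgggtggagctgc
Counted from the first base of the match to the start site, the matches lay 195, 184 and 135 bases upstream in PRSS3, LRP10 and DNHD1 and 2 bases downstream in YPEL3. The PRSS3 and YPEL3 windows lie wholly inside the GENCODE spans of these genes, so their RefSeq start sites are downstream of the annotated starts given above. A match is a description of letters and says nothing of binding in these cells.

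Other motifs were searched on both strands in the same windows. The GC box GGGCGG was in 6 of the 9, against 44.95% of all windows, and LZTS3 had the most, with 5 in the window at its annotated start. The CCAAT box CCAAT was in 4 of 9, against 34.6%, and an NF-kB-type site (GGG and CC with any 5 bases between, which can overlap the GC box) in 7 of 9, against 58.7%. The TATA box TATAAA and the E-box CACGTG were each in the DNHD1 window alone, against 11.5% and 7.26% of all windows, and the AP-1 site TGANTCA in that of PRSS3 alone, against 7.71%. The cell cycle homology region TTTGAA, in 15.2% of all windows, and the E2F site TTTNGCGC, in 1.79%, were in none of the 9. Member windows had a median of 69.0% G and C, against 58.7% over all windows.

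The families of the 10 genes did not all move alike after LY6K-AS knockdown. Every other measured gene had a higher mean in the families of FBXO44, LZTS3 and YPEL3, whereas the remaining families held higher and lower genes. LNA1 and LNA3 did not always match in this, since the YPEL family had a median of 0.60 in LNA1 and −0.15 in LNA3. FBXO17, an F-box gene, had 23.8 and 30.4 RPKM in LNA1 and LNA3, against 25.8 and 25.5 RPKM in scramble gapmers 1 and 2. Of 35 other measured TBC domain genes, which inactivate Rab GTPases as TBC1D2 does, 18 were higher and 17 lower (median log2 difference 0.05, against 0.00 over all genes). TBC1D17 had 18.4 and 33.4 RPKM in LNA1 and LNA3, against 12.2 and 13.3 RPKM in scramble gapmers 1 and 2. Of 10 genes of the lipoprotein receptor family 5 were higher and 5 lower (median −0.01). LRP1, the large endocytic receptor, had 9.59 and 24.3 RPKM in LNA1 and LNA3, against 6.60 and 7.60 RPKM in scramble gapmers 1 and 2. LRP4 had 4.45 and 0.124 RPKM in LNA1 and LNA3, against 4.14 and 4.32 RPKM in scramble gapmers 1 and 2, so only LNA3 was low. The closest relatives of RAB37 were higher for 5 of 6 genes (median 0.20), with RAB3B, a Rab of secretory vesicles, at 8.21 and 8.31 RPKM in LNA1 and LNA3, against 4.63 and 4.91 RPKM in scramble gapmers 1 and 2.

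All 4 other F-box genes of the FBA type, which bind glycoproteins or related substrates, had a higher mean (median 0.50), led by FBXO2 (log2 difference 1.54) and FBXO6 (0.67). Both lie beside FBXO44 on chromosome 1. LZTS2 was the one measured relative of LZTS3 and was higher by 0.56. Of 4 SH2D genes 3 were higher (median 0.29), of 4 trypsin-like PRSS genes 3 (median 0.10), of 4 SLC4 transporters 2 (median 0.14), of 5 dynein heavy chains 3 (median 0.10), and both YPEL genes (median 0.23). YPEL5 had 22.1 and 13.3 RPKM in LNA1 and LNA3, against 13.9 and 13.8 RPKM in scramble gapmers 1 and 2, so only LNA1 stood apart. No gene of any family passed the adjusted threshold, as in the whole table.

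After YWHAG knockdown these families held genes of both signs, except that both measured PRSS genes were higher and LZTS2 was lower. No gene of these families passed the adjusted threshold. TBC1D5, a Rab GTPase-activating protein tied to the retromer coat, had 6.67 and 5.93 RPKM in si1 and si2, against 2.14 and 1.95 RPKM in scramble siRNAs 2 and 3 (log2 difference 1.26, limma adjusted p = 0.130). It lay the other way after LY6K-AS knockdown, at −0.60, and the difference between the comparisons was not tested. Of 35 TBC genes measured in the siRNA table, with TBC1D32 in place of EVI5L, 23 were lower (median −0.15). Over all genes tested there, 42.4% were above 0 and the median was −0.05. Beside LRP10, VLDLR had 8.25 and 7.12 RPKM in si1 and si2, against 3.15 and 3.05 RPKM in scramble siRNAs 2 and 3 (limma adjusted p = 0.135). In the lipoprotein receptor family 6 of 10 genes were higher (median 0.07). RAB3B had 4.28 and 3.29 RPKM in si1 and si2, against 2.13 and 1.69 RPKM in scramble siRNAs 2 and 3 (limma adjusted p = 0.221), and 3 of the 6 RAB37 relatives were higher. The medians of the others were 0.31 over 2 PRSS genes, 0.01 over 3 SH2D genes, −0.17 for LZTS2, −0.12 over 4 FBA-type F-box genes, −0.06 over 2 YPEL genes, 0.10 over 3 dynein heavy chains and 0.29 over 4 SLC4 transporters.

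**Figure D4:**
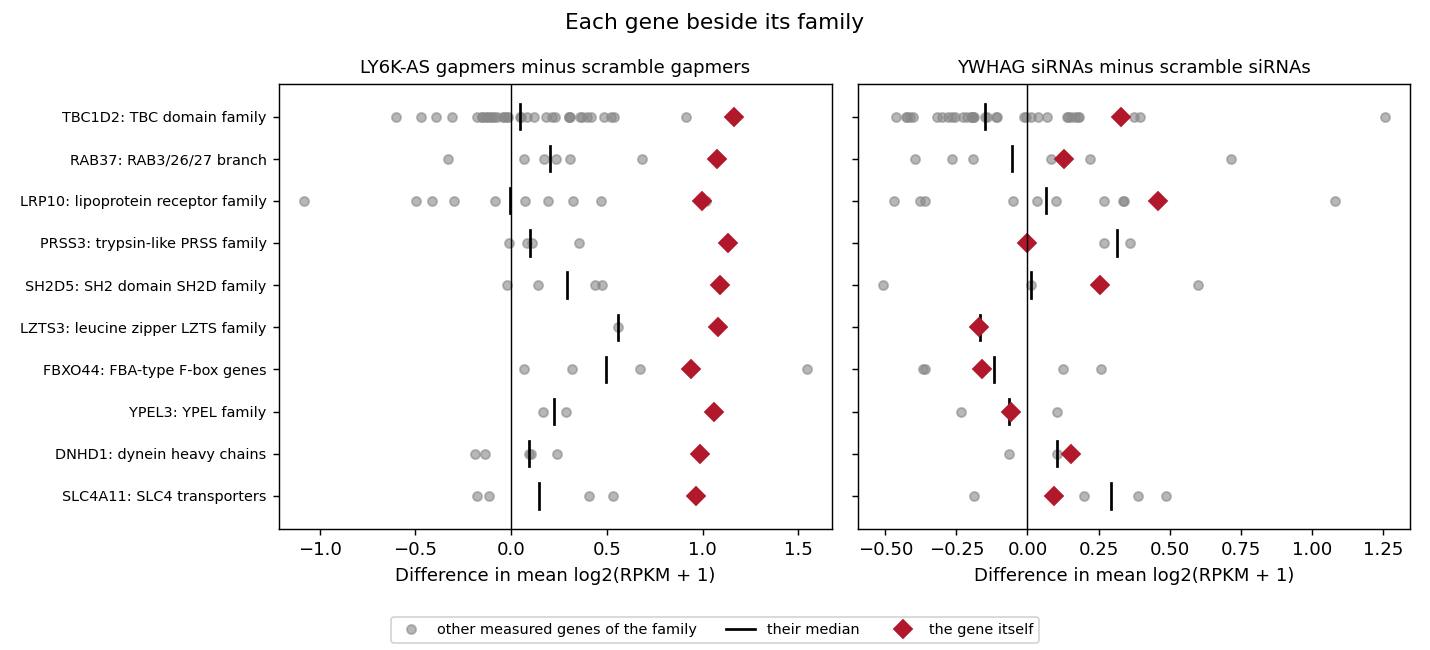
Difference in mean log2(RPKM + 1) of each of the 10 genes (red diamond) beside the other measured genes of its family (grey points, with their median as a black bar), after LY6K-AS knockdown (left) and YWHAG knockdown (right). On the left each diamond lies right of its family median of −0.01 to 0.56, with FBXO2 beyond FBXO44 at 1.54 and LRP1 hidden under LRP10; on the right diamonds fall on both sides of the medians.

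Among pathway genes, all 26 p53 targets listed were higher after LY6K-AS knockdown (median 0.73). Of them 22 had an unadjusted limma p under 0.05 and 0 an adjusted one. Over all genes 25.3% had such an unadjusted p, counted in either direction. CDKN1A, the inhibitor of cyclin-dependent kinases, had 158 and 234 RPKM in LNA1 and LNA3, against 59.7 and 59.0 RPKM in scramble gapmers 1 and 2. FDXR, a mitochondrial reductase, had 57.7 and 152 RPKM in LNA1 and LNA3, against 27.9 and 29.7 RPKM in scramble gapmers 1 and 2. Both differed more between LNA1 and LNA3 than any of the 10 genes did. All 25 genes of mitosis and DNA replication listed were lower (median −1.04, 25 with an unadjusted p under 0.05, against the same 25.3%). TOP2A, the topoisomerase that untangles replicated chromosomes, had 56.7 and 42.0 RPKM in LNA1 and LNA3, against 126 and 128 RPKM in scramble gapmers 1 and 2. After YWHAG knockdown 17 of the p53 targets were higher and 9 lower (median 0.12). Of the mitotic genes 2 were higher and 23 lower (median −0.24). An unadjusted limma p under 0.05 was found for 2 of 26 and 4 of 25, against 16.4% of all genes in either direction. These lists came from the earlier analysis of these data and are no independent evidence. In bulk RNA, fewer cells of a kind and less RNA per cell cannot be told apart.

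Among 11218 other genes searched, TP53INP1, NFKBIE, MR1, CXCL3 and DUSP23 came nearest to the mean profile of the 10 over the 8 libraries. Their Euclidean distances were 0.261 to 0.305 on the log2 scale. The 10 genes themselves lay at 0.215 (RAB37) to 0.638 (TBC1D2), so some of the 10 were farther from their own mean. TP53INP1 had 4.97 and 6.31 RPKM in LNA1 and LNA3, against 1.89 and 2.02 RPKM in scramble gapmers 1 and 2. In the siRNA table it had 2.15 and 1.51 RPKM in si1 and si2, against 1.58 and 1.74 RPKM in scramble siRNAs 2 and 3, where the groups overlapped. NFKBIE had 12.6 and 14.0 RPKM in LNA1 and LNA3, against 6.55 and 6.58 RPKM in scramble gapmers 1 and 2. In the siRNA table it had 3.77 and 2.73 RPKM in si1 and si2, against 2.74 and 3.26 RPKM in scramble siRNAs 2 and 3. All 5 were chosen by their likeness, and no test was made.

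On the chromosomes the 10 genes are scattered, except that LZTS3 and SLC4A11 lie 53824 bases apart on chromosome 20. Of the genes between these, DDRGK1 was 0.62 and ITPA 0.35 higher on the log2 scale after LY6K-AS knockdown. Within 100 kb of the 10 genes 46 other protein-coding genes were tested in the LNA table, and 26 of them (56.5%) lay above both scramble gapmers, against 31.4% of all genes. Their median log2 difference was 0.20 and their median GC content 54.2%. Of 40 such neighbours tested after YWHAG knockdown 7 (17.5%) lay above both scramble siRNAs, against 20.4% of all genes, with a median of −0.04. The nearest neighbours differed widely. After LY6K-AS knockdown FBXO2, which overlaps FBXO44, was 1.54 higher and KIF17, beside SH2D5, was 0.66 higher. Beside LZTS3, UBOX5 at 2420 bases was 0.37 higher and FASTKD5 at 2719 bases was 0.10 lower.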

How the data were processed

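Per the submitters' processing notes, STAR, featureCounts, Subread, Picard and hg38 were used, with no version or role given. The use of strand in counting is not stated there. The authors deposited RPKM in 2 tables, 1 for gapmer and 1 for siRNA libraries, normalized separately.

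The length behind each deposited RPKM was found from the values. In the LNA table genomic span gave whole reads (tolerance 0.05 reads) for 100% of values above 0, 24095 to 24507 per library, among the 52238 genes of the same GENCODE 29 version, and in the siRNA table merged exon length did. LNA values were therefore rescaled to merged exon length. Of the 10 genes, 9 gave whole reads in both tables, and intervals on reads are exact Poisson 95% intervals of counting error only. Rows without a GENCODE match were left out of the LNA tests.

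Each knockdown was compared with its own controls in limma 3.58.1 under R 4.3.3. Values were log2(RPKM + 1), the prior variance followed intensity, and genes entered at 0.5 RPKM or more in at least 2 of 4 libraries. Tests were two-sided, with Benjamini-Hochberg adjustment over all genes and a threshold of 0.05. Fold changes on this scale understate low genes, and 2 residual degrees of freedom remained per fit. The gene names and lists (families, p53 targets, mitotic, endolysosomal and protease inhibitor genes, cell markers) were chosen with earlier results of these data known, and a few genes of these lists are not reported here. Named from each list were up to 3 genes with the largest difference or the smallest p, besides the targeted genes, the 5 nearest profiles and neighbouring genes. YPEL5, LRP4, KIF17, FASTKD5, UBOX5, DDRGK1 and ITPA were partly named after their values were seen. Alternatives changed the pseudocount, filter, scaling, GC trend, spread and libraries.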

Additional observations from a re-analysis of the deposited data

How the results depend on the processing

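With the other pseudocounts the median log2 difference of the 10 genes after LY6K-AS knockdown was 1.23 (pseudocount 0.1) and 1.16 (pseudocount 0.5). It was 1.26 with voom on recovered reads, 0.84 with the GC trend removed and 0.81 on RPKM as deposited, where PRSS3 had the smallest difference at 0.21; the ratio of RPKM is the same with either length, and the pseudocount weighs more on values per span. Leaving out 1 library gave 0.95 to 1.10. No alternative turned the sign of any of the 10 there, which the choice of the genes largely fixed in advance. Genes called after LY6K-AS knockdown, 0 with all 4 libraries, ranged from 0 to 7725 when 1 library was left out: 7725 without LNA1, 4350 without LNA3 and 0 without either control. The spread then comes from the controls, and a lone knockdown library is taken to vary as they do. With the spread pooled over the 8 libraries, an alternative chosen after seeing the data, 64 genes were called after LY6K-AS knockdown and 214 after YWHAG knockdown. None of the 10 was called after YWHAG knockdown under any alternative.

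The YWHAG difference changed sign for 5 genes, all near 0 or with si1 and si2 apart. Leaving out 1 library gave −0.10 (without si1) to 0.76 for TBC1D2, −0.33 to 0.013 (without si1) for FBXO44, −0.51 to 0.17 (without si2) for LZTS3 and −0.14 to 0.022 (without si2) for YPEL3. PRSS3, −0.00 otherwise, was 0.014 with pseudocount 0.1, 0.0018 with pseudocount 0.5, 0.022 with voom, 0.047 when median centred and 0.024 with the GC trend removed, and −0.19 to 0.18 when 1 library was left out. With the replicate number as a block 0 genes were called after LY6K-AS knockdown and the median of the 10 stayed at 1.07; across genes the difference between replicates 1 and 2 in the knockdown correlated with that in the control at 0.0797, under the 0.1 taken to show pairing. No paired analysis was possible because the siRNA control columns carry other numbers than the labels, for the YWHAG comparison. With 2 libraries a group, a difference in low genes is not separable from spread.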

Other observations

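Genes of the endolysosomal system, in which TBC1D2 and LRP10 act, did not move together. Of 32 measured, 20 were higher and 12 lower after LY6K-AS knockdown (median log2 difference 0.06), against 50.3% of all genes above 0. After YWHAG knockdown 11 were higher and 21 lower (median −0.09), against 42.4% of all genes above 0. None was called by limma in either comparison. CTSD, a lysosomal protease, had 111 and 204 RPKM in LNA1 and LNA3, against 82.5 and 91.4 RPKM in scramble gapmers 1 and 2. VPS33A, a subunit of the HOPS and CORVET tethers, had 2.80 and 2.89 RPKM in si1 and si2, against 1.05 and 1.13 RPKM in scramble siRNAs 2 and 3 (limma adjusted p = 0.151).

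Of 6 measured inhibitors of serine proteases, the class of enzyme to which mesotrypsin belongs, 5 were higher and 1 lower after LY6K-AS knockdown (median 0.30), and 4 were higher and 2 lower after YWHAG knockdown (median 0.17), with none called. SERPINE2, which blocks thrombin and trypsin, had 29.1 and 37.8 RPKM in LNA1 and LNA3, against 18.3 and 19.8 RPKM in scramble gapmers 1 and 2. SERPINB1, an inhibitor of neutrophil proteases, had 53.1 and 24.3 RPKM in si1 and si2, against 25.98 and 26.8 RPKM in scramble siRNAs 2 and 3, so the YWHAG knockdown libraries lay on opposite sides of their controls.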
